A study of Homo sapiens with 9 samples.

Results

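A set of 8 genes that make, move or break down pyrophosphate and phosphate around cartilage cells were examined: ENPP1, ANKH, SLC20A1, SLC20A2, NT5E, ALPL, PHOSPHO1 and XPR1. They were chosen by name, and each matched 1 Ensembl row of the 60671 genes in the deposited count tables. The RNA came from C28/I2, an immortalised human chondrocyte cell line, and filled 3 libraries for each of the Control, Scrambled and CA2 shRNA groups. CA2 shRNA cells were transduced with a short hairpin RNA against the gene of carbonic anhydrase 2, an enzyme that hydrates carbon dioxide; the sequence carried by the Scrambled cells and any transduction of the Control cells are not described. All groups are the same line, so they model 1 immortalised chondrocyte, and no time after transduction is given. Whether the 3 libraries of a group stand for 3 cultures is not stated, so every p-value measures only how these libraries spread, and that spread may be technical.

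Totals ranged from 16994368 to 34261244 counts per library. As a check of the labels, CA2 read 55, 41 and 66 for Control, 41, 53 and 61 for Scrambled and 28, 15 and 30 for CA2 shRNA, in raw counts, and in CPM (counts scaled to the library total, here with edgeR's TMM factors) each CA2 shRNA library was below each control library. The test called it lower against Scrambled (adjusted p = 0.0276 in edgeR) and against Control (0.0159), in 13 and 15 of 19 alternative settings. At these low counts thinning to equal depth ended both calls (0.227 and 0.253), as did leaving out CA2 shRNA 2 (0.10 and 0.0665) or CA2 shRNA 3 (0.109 and 0.0759), while Scrambled 2 (0.0533), Scrambled 3 (0.103) or the filter on low counts (0.0544 without it) mattered against Scrambled and Control 1 (0.0531) against Control. The chondrocyte regulator SOX9 lay between 81.7 and 105 CPM, but the defining cartilage matrix genes were low: COL2A1 reached at most 2.23 and ACAN at most 1.17 CPM, and COL9A1 had 0 counts. Higher on the same marker list were MATN3 (10.5 to 13.6 CPM), COL11A2 (3.51 to 6.26) and COL9A3 (3.54 to 5.06). Each remaining marker reached at most 2.77 CPM. The 16 chondrocyte markers summed to 130.4 to 132 CPM in CA2 shRNA against 112 to 125 in Control and 116 to 125 in Scrambled. SOX9 alone made up most of each sum, at 103 to 105, 81.7 to 97.0 and 88.2 to 92.5 CPM in the same order. The median log2 change of the 10 tested markers was -0.16 against Scrambled and -0.22 against Control. Over all genes it was -0.025 and -0.0048, so the higher sum is no rise of the set. Of the 10, SOX9 rose (0.20 on the log2 scale against Scrambled) and COMP fell (-0.86). The SOX9 call passed in 12 of 19 alternatives against Scrambled (edgeR or DESeq2 adjusted p 0.0163 to 0.121) and 14 against Control (0.00396 to 0.190), and the COMP call in 18 (0.00957 to 0.0725) and 14 (0.0135 to 0.0908). Leaving out CA2 shRNA 2 ended each of these 4 calls, and leaving out Control 1 ended both against Control. Other libraries whose removal ended a SOX9 call were Control 2, Scrambled 3 and CA2 shRNA 1 in both comparisons and Scrambled 1 against Scrambled, and for COMP Control 3 and CA2 shRNA 3 against Control. The part of these markers in the results was not tested. The summed markers of immune cells (2.99 to 4.57 CPM), endothelium (5.25 to 8.46), epithelium (2.67 to 3.85) and osteoblasts (4.12 to 6.14) were low in every library. Their groups overlapped, except that the epithelial sum was lower in CA2 shRNA (2.67 to 3.04 CPM) than in Scrambled (3.11 to 3.60) though not than in Control (2.69 to 3.85); its part in the results was not tested. PTPRC was at most 0.168, PECAM1 at most 0.804 and EPCAM at most 0.537 CPM, but other markers of these lists were higher. The immune marker CD14 reached 2.09, the endothelial CLDN5 and VWF 4.18 and 2.49, and the epithelial CLDN4 2.75 CPM. CLDN5, VWF and CLDN4 thus reached above the 2.23 CPM of COL2A1. The 6 osteoblast markers leave out the bone regulator RUNX2 (55.6 to 66.5 CPM) and the collagen gene COL1A1 (1555 to 1764 CPM). Both were far higher, so the low osteoblast sum does not speak for them. Control 3 and Scrambled 2 stood apart, with 4.06% and 4.08% mitochondrial counts against 5.55% to 6.86% elsewhere; their part was tested only by leaving them out.

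Pyrophosphate, the ion of a pair of linked phosphates, blocks the growth of hydroxyapatite crystals, and phosphate is one of the ions the crystal is built from, so the ratio of the 2 ions around a chondrocyte helps to set whether cartilage calcifies. Chondrocytes supply pyrophosphate by cutting extracellular nucleotides and by exporting ATP and pyrophosphate, and tissue-nonspecific alkaline phosphatase hydrolyses it to phosphate, which sodium-coupled carriers then bring into the cell. Too little extracellular pyrophosphate is known to let soft tissue calcify, and too much is known for crystals of calcium pyrophosphate in joint cartilage.

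In the CA2 shRNA cells ENPP1, the main source of extracellular pyrophosphate, was lower and SLC20A1, a phosphate importer, was higher than in either control group, and the other 6 genes did not pass the test. All 8 genes passed the filter on low counts. Against Scrambled, 1 of the 8 rose and 1 fell at an adjusted p under 0.05 in edgeR's quasi-likelihood test with Benjamini-Hochberg adjustment, where 16.9% of all 19812 genes tested did (8.02% of all genes higher and 8.88% lower). Against Control the count was again 1 and 1, beside 14.7% of all genes, 6.41% higher and 8.26% lower. With so many genes called, 2 of 8 is no result about the set as a whole. These comparisons share the CA2 shRNA libraries. Between Scrambled and Control 0 of the 8 passed, as did 0 genes overall (0%), with 550 genes at an unadjusted p under 0.05 in edgeR and 1 gene past the threshold in DESeq2. Leaving out 1 library moved that unadjusted count between 343 (without Control 3) and 2039 (without Scrambled 2). The 0 calls therefore do not show that the control groups are equal. The median log2 change of the 8 was -0.048 against Scrambled and 0.048 against Control, beside -0.025 and -0.0048 over all genes tested. By levels alone, the CA2 shRNA libraries did not overlap those of Scrambled for 4 of the 8 genes, nor those of Control for 4, beside 32.3% and 33% of all genes. Scrambled overlapped Control for all 8, where 6.81% of all genes were separate.

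**Figure D1:**
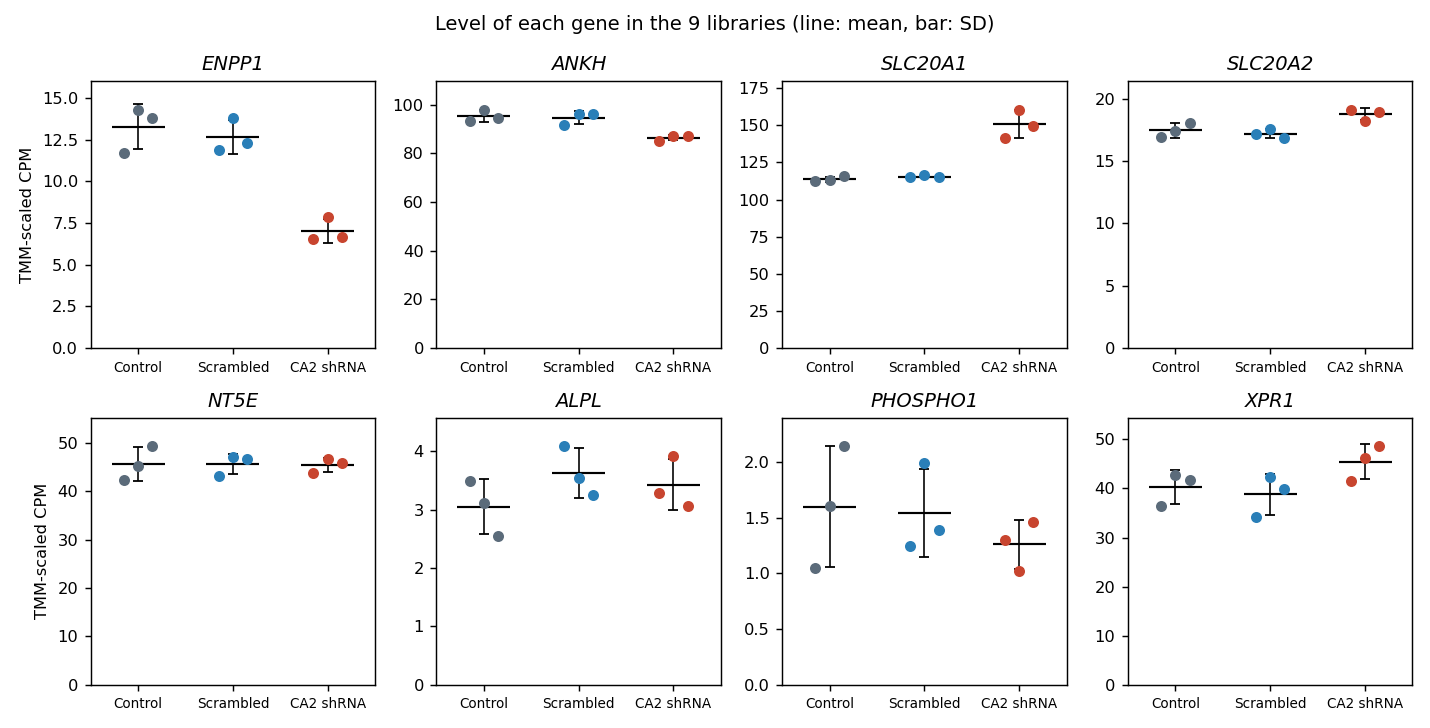
Level of each of the 8 genes in TMM-scaled CPM (vertical axis from 0), with 1 point per library, a line at the group mean and a bar of 1 SD, for Control, Scrambled and CA2 shRNA. The CA2 shRNA points of ENPP1 lie below all 6 other libraries and those of SLC20A1 above them, while NT5E, ALPL and PHOSPHO1 overlap between all groups.

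ENPP1 encodes ectonucleotide pyrophosphatase/phosphodiesterase 1, a membrane enzyme that splits extracellular ATP into AMP and pyrophosphate. The gene (ENSG00000197594) lies on chromosome 6, from 131808016 to 131895155 on the plus strand (GRCh38). Its TMM-scaled levels were 11.7, 14.3 and 13.8 CPM for the Control libraries, 11.9, 13.8 and 12.3 for the Scrambled and 6.54, 7.84 and 6.65 for the CA2 shRNA ones. The highest CA2 shRNA library was below the lowest library of both control groups, and Control and Scrambled overlapped. The group means were 13.3 ± 1.37, 12.7 ± 1.02 and 7.01 ± 0.723 CPM (SD, n = 3 each). ENPP1 fell by 0.86 on the log2 scale relative to Scrambled (standard error 0.12, adjusted p = 4.40e-05, edgeR), to 0.550 of the Scrambled level. Against Control it fell by 0.93 (standard error 0.12, adjusted p = 1.93e-05), and Scrambled less Control was -0.067 (95% interval -0.29 to 0.16). Its fall passed in all 19 alternative settings against each control group. Among the 1759 genes that fell against Scrambled 265 fell further, and among the 1637 that fell against Control 198 did, so its change was larger than that of most called falls, whose medians were -0.47 and -0.46. In bulk RNA, less of the transcript per cell and fewer cells that express it cannot be told apart. A pseudogene on the opposite strand shares 94 bases of the ENPP1 exons and had at most 5 counts in any library.

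Sequence stretches in the 3' untranslated regions (UTRs) are shown next because earlier work on these data, after seeing the values, had picked out the heptamers ACACCAA and CACCAAA, which overlap by 6 bases, in the 3' UTRs of strongly falling genes. The 3' UTRs of GENCODE 29 transcripts (GRCh38) were searched on the transcript strand only, and the heptamer is in capitals below, 5′ to 3′.

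ENPP1: ataatatcagtACACCAAAgatttttatat
ANKH: ggtacacatcaACACCAAtcacccagcacc
PHOSPHO1: accagggacttCACCAAAgtcaccctcgcg

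ENPP1 carries both heptamers as 1 run of 8 bases at chromosome 6, 131891628 to 131891635 on the plus strand, starting at base 1117 of a 3' UTR of 4644 bases. ANKH carries ACACCAA alone at chromosome 5, 14705772 to 14705778 on the minus strand, at base 5419 of 6397. PHOSPHO1 carries CACCAAA alone at chromosome 17, 49223506 to 49223512 on the minus strand, at base 734 of 884. No match was found in the annotated 3' UTRs of SLC20A1, SLC20A2, NT5E, ALPL and XPR1, although that of XPR1 runs to 6185 bases. Of 13960 tested protein-coding genes with a 3' UTR, 11.1% hold ACACCAA, 14.5% hold CACCAAA and 5.69% hold both. Among the 1224 whose 3' UTR is within 20% of the length of ENPP1's, 12% hold both. Shares with both count heptamers anywhere in a gene's 3' UTRs, joined or apart, so the share holding the run of 8 bases was not counted. Around the length of ANKH's 3' UTR 32.5% hold ACACCAA, and around that of PHOSPHO1 7.17% hold CACCAAA. These are matches of letters, and whether anything binds there was not tested.

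ANKH encodes the membrane protein that lets ATP and pyrophosphate leave the cell, the other supply of extracellular pyrophosphate. It (ENSG00000154122) lies on chromosome 5, from 14704800 to 14871778 on the minus strand. Its levels were 93.3, 97.9 and 94.5 CPM for the Control libraries, 91.7, 96.0 and 96.1 for the Scrambled and 85.1, 87.1 and 87.1 for the CA2 shRNA ones. All 3 CA2 shRNA libraries were below all 6 others, by a small margin. The mean went from 94.6 ± 2.53 in Scrambled to 86.5 ± 1.13 CPM (SD, n = 3 each), a log2 difference of -0.13 (95% interval -0.24 to -0.016) that did not pass over all genes (adjusted p = 0.116 in edgeR). Against Control the difference was -0.14 (95% interval -0.25 to -0.024, adjusted p = 0.103). It passed there when only the Control and CA2 shRNA libraries were fitted (0.0439) and without Scrambled 1 (0.0496). The interval against Scrambled ends at -0.24, far short of the change of ENPP1.

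The enzymes that remove pyrophosphate or release phosphate did not pass. ALPL, tissue-nonspecific alkaline phosphatase, which sits on the outer face of the cell membrane and hydrolyses pyrophosphate, lies on chromosome 1, from 21509397 to 21578410 on the plus strand (ENSG00000162551). Its levels were 3.49, 3.12 and 2.55 CPM for the Control libraries, 4.09, 3.54 and 3.25 for the Scrambled and 3.29, 3.92 and 3.07 for the CA2 shRNA ones, resting on 733 counts over the 9 libraries. The 3 groups overlapped. The log2 difference was -0.088 against Scrambled (95% interval -0.46 to 0.29) and 0.17 against Control (-0.22 to 0.55), so changes inside these intervals, in either direction, were not detectable at this depth. PHOSPHO1, a phosphatase that frees phosphate from phosphocholine inside matrix vesicles, lies on chromosome 17, from 49223366 to 49230787 on the minus strand (ENSG00000173868) and was the least abundant of the set, with 25, 33 and 73 for Control, 28, 54 and 41 for Scrambled and 26, 17 and 40 for CA2 shRNA as counts. Its levels were 1.05, 1.61 and 2.14 CPM for the Control libraries, 1.24, 1.99 and 1.39 for the Scrambled and 1.3, 1.03 and 1.46 for the CA2 shRNA ones. Within each control group it was highest in Control 3 and Scrambled 2, the libraries of low mitochondrial share. Its log2 difference was -0.27 against Scrambled (95% interval -0.89 to 0.34) and -0.017 without those libraries.

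NT5E encodes CD73, the surface enzyme that turns the AMP left by ENPP1 into adenosine and phosphate, and lies on chromosome 6, from 85449584 to 85495791 on the plus strand (ENSG00000135318). Its levels were 42.2, 45.1 and 49.3 CPM for the Control libraries, 43.2, 47.1 and 46.6 for the Scrambled and 43.8, 46.6 and 45.7 for the CA2 shRNA ones, and the groups overlapped throughout. The mean was 45.5 ± 3.53 in Control, 45.6 ± 2.11 in Scrambled and 45.4 ± 1.41 CPM in CA2 shRNA (SD, n = 3 each). The log2 differences of -0.0093 and -0.0070 changed sign between scalings. Their 95% intervals, -0.16 to 0.14 against Scrambled and -0.16 to 0.14 against Control, leave out a change of the size seen for ENPP1 or SLC20A1.

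Of the genes that move phosphate across the plasma membrane, SLC20A1 rose. It encodes PiT-1, a sodium-coupled phosphate importer, and lies on chromosome 2, from 112645939 to 112663825 on the plus strand (ENSG00000144136). Its levels were 113, 113 and 116 CPM for the Control libraries, 115, 116 and 115 for the Scrambled and 142, 160.5 and 149 for the CA2 shRNA ones. The 6 control libraries lay within a few CPM of each other, and the 3 CA2 shRNA libraries were all higher and more spread. The mean rose from 115 ± 0.635 in Scrambled and 114 ± 1.61 in Control to 151 ± 9.45 CPM (SD, n = 3 each). That was a log2 change of 0.38 against Scrambled (standard error 0.056, adjusted p = 9.65e-05) and 0.40 against Control (standard error 0.056, adjusted p = 5.53e-05, edgeR), or 1.3 and 1.32 times the control level. It passed in all 19 alternative settings against each control group. Of the 1589 rises against Scrambled 552 were larger and the median was 0.32, so the rise of SLC20A1 was of middling size among the calls.

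SLC20A2, which encodes the paralogous importer PiT-2, lies on chromosome 8, from 42416475 to 42541926 on the minus strand (ENSG00000168575). Its levels were 16.9, 17.4 and 18.0 CPM for the Control libraries, 17.2, 17.5 and 16.9 for the Scrambled and 19.1, 18.2 and 18.9 for the CA2 shRNA ones. Every CA2 shRNA library was above every control library, but the gap was narrow. The log2 difference of 0.13 against Scrambled (95% interval -0.042 to 0.29, adjusted p = 0.323 in edgeR) and of 0.10 against Control (-0.064 to 0.27, adjusted p = 0.465) did not pass. Its exons share 278 bases with SMIM19 on the opposite strand, and since the strand setting is not given in the sources used, reads there could belong to either gene.

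XPR1 encodes the phosphate exporter and lies on chromosome 1, from 180632022 to 180890279 on the plus strand (ENSG00000143324). Its levels were 36.4, 42.8 and 41.8 CPM for the Control libraries, 34.1, 42.3 and 39.9 for the Scrambled and 41.6, 46.2 and 48.6 for the CA2 shRNA ones. The CA2 shRNA libraries were high on average but overlapped the controls, since CA2 shRNA 1 lay below Scrambled 2, Control 2 and Control 3. The mean was 40.3 ± 3.46 in Control, 38.8 ± 4.23 in Scrambled and 45.5 ± 3.54 CPM in CA2 shRNA (SD, n = 3 each). The log2 difference of 0.23 against Scrambled (95% interval 0.042 to 0.42) did not pass (adjusted p = 0.0908 in edgeR), nor did that of 0.17 against Control (adjusted p = 0.229). Against Scrambled it passed in 5 of 19 alternatives: without Scrambled 2 (0.0136), without Control 3 and Scrambled 2 (0.0111), without CA2 shRNA 1 (0.0362), with no filter (0.0323) and with the replicate number as a block (0.0256).

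**Figure D2:**
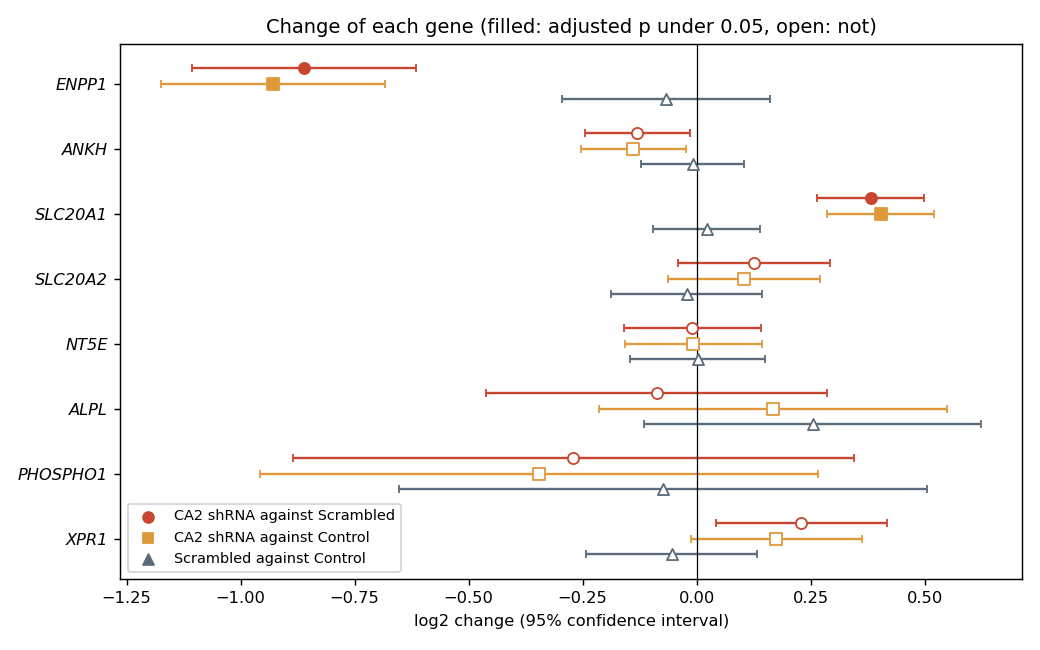
Fitted log2 change of each gene (horizontal axis) with its 95% confidence interval for CA2 shRNA against Scrambled (circles), CA2 shRNA against Control (squares) and Scrambled against Control (triangles). ENPP1 at -0.86 and SLC20A1 at 0.38 against Scrambled carry filled symbols, and the widest intervals belong to PHOSPHO1 and ALPL, which had the fewest counts.

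Levels of different genes were compared per length, as RPKM (TMM-scaled CPM for each kilobase of exon). Over the 9 libraries SLC20A1 stood highest at 20.5 to 29.2 RPKM, followed by NT5E at 9.31 to 10.9, ANKH at 6.71 to 7.71, XPR1 at 3.83 to 5.45 and SLC20A2 at 2.63 to 2.98 RPKM. None of these neighbouring ranges overlapped. At the low end, ALPL (0.856 to 1.37 RPKM), ENPP1 (0.657 to 1.43) and PHOSPHO1 (0.429 to 0.895) overlapped one another, all below SLC20A2. The exporter ANKH was therefore present at several times the level of the nucleotide-splitting ENPP1 per length of transcript model, and the importer SLC20A1 at several times that of its paralog SLC20A2. The order changed with the group only there: mean ENPP1 was 1.33 ± 0.137 RPKM in Control and 1.27 ± 0.102 in Scrambled, above ALPL at 1.02 ± 0.158 and 1.22 ± 0.143, but 0.704 ± 0.0726 in CA2 shRNA, below ALPL at 1.15 ± 0.148 (SD, n = 3 each). The ENPP1 and ALPL ranges overlapped in Scrambled and did not in Control or CA2 shRNA.

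**Figure D3:**
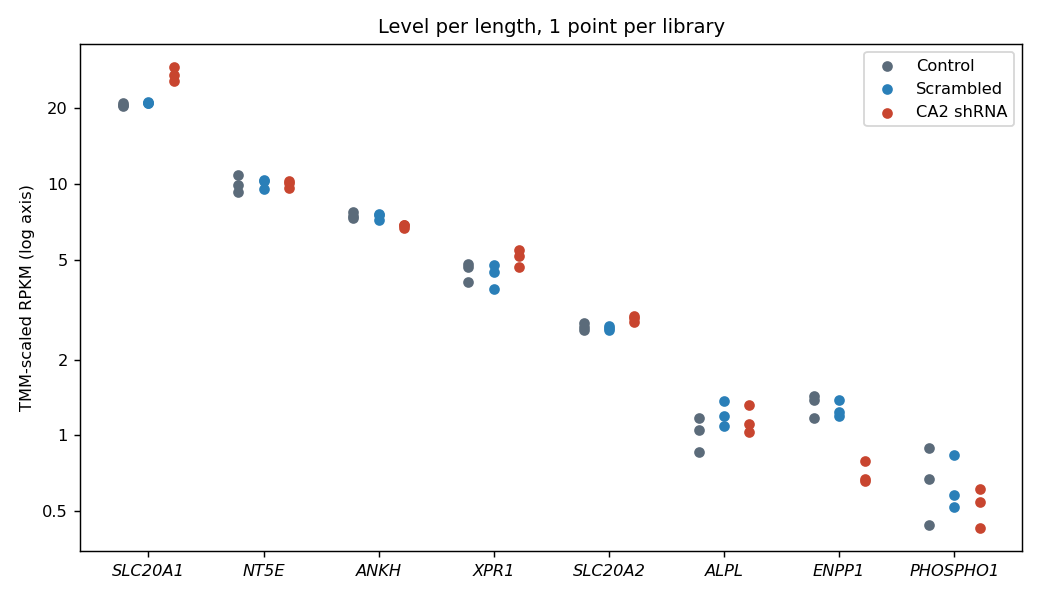
TMM-scaled RPKM of the 8 genes on a log axis, 1 point per library, coloured by group and ordered by the mean over all 9 libraries. SLC20A1 lies above 20 RPKM in every library, and ENPP1 in CA2 shRNA drops below every ALPL point.

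Within a library, the ratio of 2 genes is free of the scaling between libraries. The RPKM of ENPP1, which makes pyrophosphate, over that of ALPL, which breaks it down, was 1.01, 1.37 and 1.62 for the Control libraries, 0.868, 1.17 and 1.13 for Scrambled and 0.594, 0.598 and 0.648 for CA2 shRNA. All 3 CA2 shRNA ratios were below all 6 control ratios, with means of 1.33 ± 0.309, 1.06 ± 0.163 and 0.614 ± 0.0302 (SD, n = 3 each). ENPP1 over NT5E, the next enzyme of the chain, was 0.126, 0.144 and 0.128 for the Control libraries, 0.125, 0.134 and 0.120 for Scrambled and 0.0679, 0.0766 and 0.0662 for CA2 shRNA, again with no overlap. SLC20A1 over SLC20A2 was 7.79, 7.60 and 7.49 for the Control libraries, 7.84, 7.75 and 7.96 for Scrambled and 8.67, 10.3 and 9.25 for CA2 shRNA, so all 3 CA2 shRNA ratios were above all others. These ratios are descriptions with no test of their own, since they rest on the changes of ENPP1 and SLC20A1 already given, and they concern transcripts rather than enzyme or carrier activity.

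**Figure D4:**
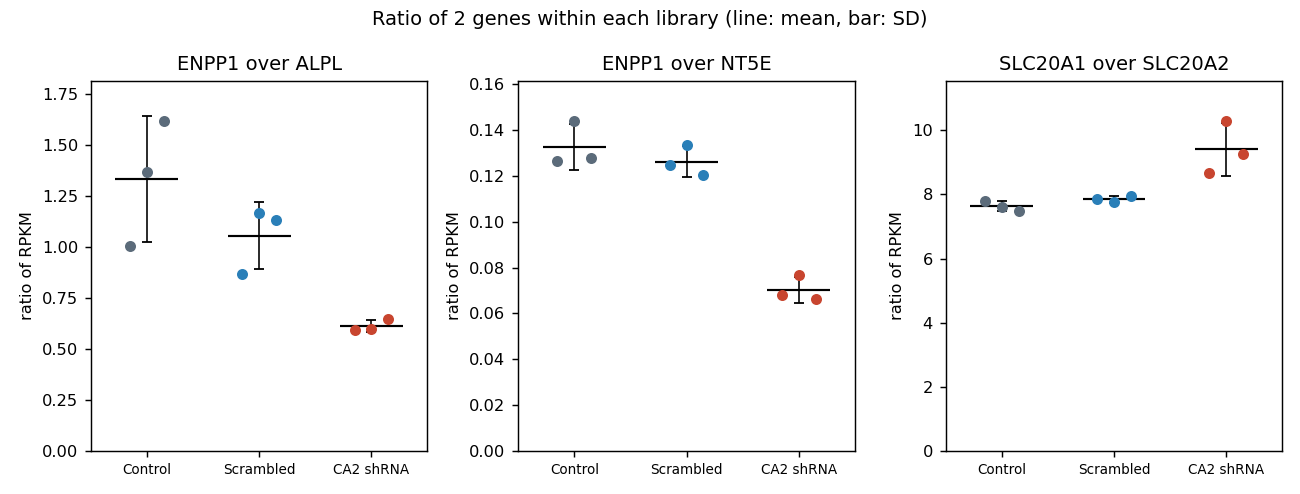
Ratio of the RPKM of 2 genes in each library (vertical axes from 0), with a line at the group mean and a bar of 1 SD: ENPP1 over ALPL, ENPP1 over NT5E and SLC20A1 over SLC20A2. In the first pair of panels the CA2 shRNA points lie below all 6 control points, and in the last above them.

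The genes whose log2 level followed ENPP1 most closely over the 9 libraries, among 10002 with a mean of at least 10 CPM, were C9orf40 (Pearson r = 0.991), the interleukin 1 receptor gene IL1R1 (0.989) and the LIM domain gene FHL2 (0.989). Those that followed SLC20A1 were the adhesion molecule gene L1CAM (0.996), the RNA methyltransferase gene METTL16 (0.995) and the kinase gene MAP3K9 (0.994). IL1R1 had mean levels of 17.2, 16.1 and 7.27 CPM in Control, Scrambled and CA2 shRNA, and MAP3K9 of 93.5, 94.7 and 139.5 CPM. The 9 points share the 3 groups, and any gene with a step between CA2 shRNA and the rest correlates in this way.

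A wider list of nucleotide, adenosine and pyrophosphate genes, which also holds enzymes that act inside the cell, was read next. Against Scrambled 6 of 28 tested genes rose, 1 fell and the other 21 missed the threshold, with a median of 0.037 beside -0.025 over all genes, and against Control 6 rose and 1 fell. Of all genes tested 16.9% were called against Scrambled, 8.02% as higher, and 14.7% against Control, 6.41% as higher. The list was chosen with earlier results known, and its calls are too few to read a direction from. PANX1, a channel through which cells release ATP, was 24.1, 23.2 and 21.9 CPM for the Control libraries, 21.6, 24.3 and 23.8 for the Scrambled and 36.4, 35.4 and 36.9 for the CA2 shRNA ones, and its libraries did not overlap. It rose by 0.64 on the log2 scale against Scrambled (standard error 0.075, adjusted p = 8.87e-06, edgeR) and by 0.65 against Control. The adenosine receptor gene ADORA1 went from 10.2 ± 0.478 in Scrambled and 10.9 ± 0.671 in Control to 17.4 ± 2.42 CPM (SD, n = 3 each), with log2 changes of 0.76 and 0.66 (adjusted p = 7.78e-05 and 3.00e-04 in edgeR). The relative of ENPP1 named ENPP4, which cleaves diadenosine triphosphate, rose from 2.62 ± 0.421 to 4.65 ± 0.436 CPM against Scrambled (0.81, adjusted p = 0.00249). Its rise against Control (0.51, adjusted p = 0.0468) passed in 8 of 19 alternatives (range 0.0275 to 0.207). The nucleotidase gene ENTPD6 rose by 0.41 and 0.37 against Scrambled and Control (adjusted p = 5.90e-04 and 0.00151).

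The genes of this paragraph were outside the naming rule and picked after their values were seen. The adenosine transporter gene SLC29A1 rose by 0.39 against Scrambled and 0.34 against Control. The adenosine kinase gene ADK rose by 0.19 against Scrambled (edgeR adjusted p = 0.0431, passing in 10 of 19 alternatives, range 0.0126 to 0.172). Against Control ADK did not pass, though it did in 7 of 19 alternatives. The gene that rose against Control in its place was ADA, passing in 10 of 19 alternatives (edgeR or DESeq2 adjusted p 0.0106 to 0.255). ADA did not pass against Scrambled. ENTPD5 was the 1 that fell, by 0.28 against Scrambled (adjusted p = 0.0118; 0.0614 without Scrambled 3 and 0.0523 without CA2 shRNA 1) and by 0.22 against Control, where it passed in 3 of 19 alternatives (range 0.0211 to 0.172). ABCC6, the transporter whose loss lowers circulating pyrophosphate, gave -0.16 and 0.071 without passing, and the intracellular pyrophosphatase genes PPA1 and PPA2 gave 0.18 and -0.15 against Scrambled, also without passing.

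Of 22 other phosphate carriers and genes of phosphate sensing 14 were tested, of which 2 rose, 1 fell and 11 did not pass against Scrambled (median 0.086), and 2 rose and 1 fell against Control. The count is near the 16.9% and 14.7% of all genes called. A pair of relatives in the family of phosphate-linked exchangers moved in opposite directions. SLC37A3, a lysosomal member, was 17.9, 17.0 and 18.2 CPM for the Control libraries, 17.9, 18.8 and 17.4 for the Scrambled and 29.6, 26.7 and 27.3 for the CA2 shRNA ones, a rise of 0.63 and 0.66 on the log2 scale against Scrambled and Control (adjusted p = 1.96e-05 and 1.29e-05). SLC37A2 was 10.1, 9.56 and 9.21 CPM for the Control libraries, 8.26, 7.83 and 9.95 for the Scrambled and 6.14, 4.95 and 5.74 for the CA2 shRNA ones, and fell by 0.63 (adjusted p = 0.00230) and 0.77 (adjusted p = 3.56e-04, edgeR). Neither gene's CA2 shRNA libraries overlapped a control library. The inositol phosphate phosphatase gene MINPP1 rose by 0.25 against Scrambled (adjusted p = 0.0306), a call lost on leaving out Control 2 (0.0590), Scrambled 1 (0.0560), Scrambled 3 (0.118), CA2 shRNA 2 (0.111) and likewise CA2 shRNA 3 (0.0627), and did not pass against Control (0.163). The gene that passed against Control in its place was IP6K1, an inositol hexakisphosphate kinase, at 0.20 (adjusted p = 0.0415, range over alternatives 0.00507 to 0.231, lost without Control 1, Control 2, Scrambled 3 or CA2 shRNA 2). KIDINS220, whose protein binds XPR1, gave 0.085 and 0.081 and the mitochondrial phosphate carrier gene SLC25A3 0.13 and 0.10, with no call in either comparison. IP6K1, KIDINS220 and SLC25A3 were outside the naming rule and picked with their values known.

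Among 26 regulators of mineralisation, 16 were tested and 10 were too low to test, including the inhibitors MGP and SPP1, the latter at most 0.126 CPM in any library. Against each control group 3 rose, 0 fell and 13 did not pass, with medians of 0.018 and 0.058. That, too, is near the 16.9% and 14.7% called over all genes in either direction. All 3 calls were rises, where 8.02% and 6.41% of all genes rose, and 3 calls are too few to read a direction from. SPARC, a secreted calcium- and collagen-binding protein gene, rose from 657 ± 15.2 in Scrambled and 686 ± 38.8 in Control to 940.3 ± 32.0 CPM (SD, n = 3 each), by 0.52 and 0.46 on the log2 scale (adjusted p = 3.22e-06 and 1.34e-05 in edgeR). SMPD3, the neutral sphingomyelinase gene whose loss impairs skeletal mineralisation in mice, rose by 0.38 (adjusted p = 6.48e-04) and 0.28 (adjusted p = 0.00870, 0.0593 without Control 2). ANXA5, an annexin of matrix vesicles, rose by 0.21 and 0.20, calls lost against Scrambled without Scrambled 3 (0.0657) or CA2 shRNA 2 (0.0523) and against Control without Control 1 (0.130), Control 2 (0.0754) or CA2 shRNA 2 (0.0894). The bone regulator RUNX2 stood near 55.6 to 66.5 CPM and gave -0.11 and -0.017, and TNFRSF11B, the osteoprotegerin gene, -0.0049 and 0.066, with no call. RUNX2 and TNFRSF11B were outside the naming rule and picked with their values known.

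ALPL and NT5E are held on the cell surface by a glycosylphosphatidylinositol (GPI) anchor, and ALPL needs zinc that is loaded in the secretory pathway. Of 31 tested genes of these steps 3 rose, 1 fell and 27 did not pass against Scrambled (median 0.061), and 2 rose and 2 fell against Control, no more than the 16.9% and 14.7% of all genes. PIGP, a subunit of the complex that starts anchor synthesis, was 20.1, 21.5 and 22.4 CPM for the Control libraries, 19.6, 23.7 and 21.7 for the Scrambled and 9.28, 8.02 and 8.74 for the CA2 shRNA ones. It fell by 1.32 on the log2 scale relative to Scrambled (standard error 0.10, adjusted p = 4.66e-08) and by 1.29 against Control (standard error 0.10, adjusted p = 5.38e-08, edgeR), with no overlap, more than ENPP1. PIGA, the catalytic subunit of the same complex, was 30.7, 38.1 and 36.6 CPM for the Control libraries, 33.1, 36.3 and 36.3 for the Scrambled and 50.2, 48.0 and 50.6 for the CA2 shRNA ones and rose by 0.49 and 0.50 (adjusted p = 2.77e-04 and 2.63e-04), so the 2 subunits moved in opposite directions. PIGS, of the transamidase that attaches the anchor, rose by 0.22 and 0.22, against Scrambled with adjusted p = 0.0310 (range 0.0173 to 0.190, lost without Scrambled 3, CA2 shRNA 2 or Control 2) and against Control with 0.0334 (range 0.00988 to 0.221, lost without Scrambled 3, CA2 shRNA 2 or any Control library). PIGU of that enzyme rose by 0.22 against Scrambled at the edge of the threshold (adjusted p = 0.0494, passing in 10 of 19 alternatives, range 0.0208 to 0.253), and the zinc transporter gene SLC30A6 fell by 0.30 against Control (adjusted p = 0.0447, passing in 8 of 19, range 0.00151 to 0.166). Against Scrambled SLC30A6 gave -0.24 (edgeR adjusted p = 0.10, passing in 2 of 19, range 0.00858 to 0.528, with 0.00858 without Scrambled 1). The difference between the comparisons was not tested. SLC30A6 was outside the naming rule and picked with its values known.

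**Figure D5:**
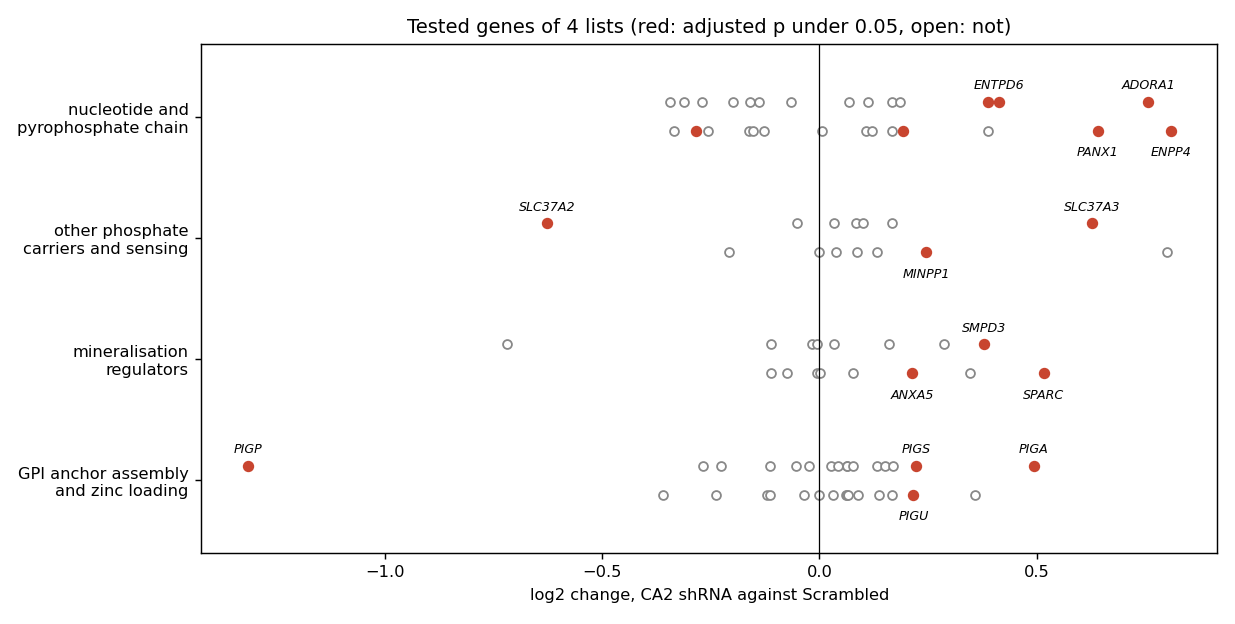
Fitted log2 change against Scrambled (horizontal axis) of every tested gene in 4 lists around the 8 genes, 1 row per list, with the rows spread only for legibility. Red points passed at an adjusted p under 0.05, and PIGP at -1.32 and ENPP4 at 0.81 are the lowest and highest of them.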

How the data were processed

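Every library has a table that, per the file headers, lists the deposited count of reads for each gene beside CPM and RPKM; recomputing showed the deposited CPM to be the count over the library sum and the deposited RPKM to be CPM per kilobase of exon. Per the submitters' processing notes, the tools were STAR 2.5.1a, bcl2fastq and Subread's featureCounts 1.4.6-p5, with the GRCh38 build. The annotation release, strand setting and handling of multi-mapping reads were not given in the sources used. Symbols came from a reference table (60401 IDs) and GENCODE 29 (246).

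Counts were tested in R 4.3.3 with edgeR 4.0.16: filterByExpr (19812 genes kept), TMM factors (0.977 to 1.01), and the robust quasi-likelihood F test on all 9 libraries with a term per group, Benjamini-Hochberg adjusted over all genes at a threshold of 0.05. The biological coefficient of variation was 7.94%. Intervals are 95% and use the moderated degrees of freedom. All pairs of libraries differed by more than sampling noise (chi-square per gene at least 3.38). That lowest value was for Control 3 and Scrambled 2, of different groups, and the lowest within a group was 4.16. An exact permutation test of 3 against 3 cannot go below 0.10, so none is given. The fit was tested on simulated data. Alternatives were DESeq2 size factors, upper-quartile factors, library totals, no filter, at least 1 CPM in 3 libraries, DESeq2 1.42.0, pairwise fits, thinning to 16994368 counts, a replicate block, leaving out each library, and leaving out Control 3 and Scrambled 2.

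The 8 genes, the lists and the heptamers were chosen with earlier results of these data known. Named in the lists were up to 4 genes per list past the threshold against Scrambled with the largest changes. For likeness they were the 3 genes of highest Pearson r on log2 CPM with a prior count of 2. Other list genes were named outside this rule, with their values known. The lists cover nucleotide and pyrophosphate genes, phosphate carriers and sensing, mineralisation regulators, GPI anchors and zinc, and markers of chondrocytes, osteoblasts, immune, endothelial and epithelial cells. Of the chondrocyte markers 10 of 16 were tested, with the values given above; of the tested osteoblast (3), immune (4), endothelial (5) and epithelial (2) markers 0 passed in edgeR in any comparison.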

Additional observations from a re-analysis of the deposited data

How the results depend on the processing

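The fall of ENPP1 and the rise of SLC20A1 passed under all 19 alternatives against both control groups, with log2 changes of -0.96 to -0.77 and 0.32 to 0.46 against Scrambled. Of the 8 genes 2 or 3 passed in each setting of both CA2 shRNA comparisons, and 0 between Scrambled and Control. Over all genes the calls against Scrambled numbered 3348, 2059 to 4011 when 1 library was left out (2059 without Scrambled 3), and against Control 2906, 1962 to 3662. The balance of directions turned with the setting. Rises and falls against Scrambled were 1589 and 1759. They were 1810 and 1596 with DESeq2 size factors, 1845 and 1526 with DESeq2, and 1972 and 1696 with at least 1 CPM in 3 libraries. Leaving out Scrambled 2 gave 2357 and 1654, CA2 shRNA 1 1536 and 1129, and CA2 shRNA 3 1546 and 1164. Without Control 3 and Scrambled 2 they were 2407 and 1882. Against Control they were 1269 and 1637, but 1674 and 1557 with at least 1 CPM in 3 libraries. Without Scrambled 2 they were 2030 and 1632, and without Control 3 and Scrambled 2 1752 and 1461. Without CA2 shRNA 1 they were 1265 and 1063, and without CA2 shRNA 3 1272 and 1108. Between Scrambled and Control there were 0 calls, 7 with no filter, 1 with DESeq2 and 0 to 1 without 1 library (1 without Scrambled 2).

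Differences near 0 changed sign. For NT5E against Scrambled they were 0.011 with DESeq2 size factors, 0.0053 with at least 1 CPM in 3 libraries, 0.011 with DESeq2, 0.0067 after thinning, 0.036 without Control 3 and Scrambled 2, and -0.057 to 0.048 without 1 library. In the same order NT5E against Control gave 0.0047, 0.014, 0.0042, 0.047, 0.085 and -0.060 to 0.056. ALPL against Scrambled was -0.20 to 0.021 without 1 library. For Scrambled against Control, NT5E was -0.0062 with DESeq2 size factors, -0.0082 with no filter, -0.0064 with DESeq2 and -0.050 to 0.065 without 1 library; ANKH was 0.0083 with upper-quartile factors, 0.00091 with library totals, 0.0010 after thinning and -0.024 to 0.0085 without 1 library; and CA2 was 0.0055 after thinning. In that comparison PHOSPHO1 was 0.010 without Control 3 and Scrambled 2 and -0.30 to 0.23 without 1 library, SLC20A2 -0.046 to 0.0050 and XPR1 -0.12 to 0.022. The cause of these changes was not tested.

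With the replicate number as a block, 3422 genes were called against Scrambled, 2946 against Control and 0 between the controls, with 3, 2 and 0 of the 8 among them. No pairing by number was seen: same-numbered libraries had deviations correlated by -0.19 to 0.10, and 2 of 9 matched their own number best. Deviations from means of 3 libraries cannot exclude shared batches, and the labels do not state any. The order of the 8 genes per length was the same with the deposited RPKM. Depth limits ALPL and PHOSPHO1 most, and DESeq2 gave no adjusted p for PHOSPHO1 against Control.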
